A study of Arabidopsis thaliana with 2 samples.

Results

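Auxin (indole-3-acetic acid, IAA) is made in plants mainly in a pair of steps, and the genes that encode those steps were read here in embryos of Arabidopsis thaliana with and without normal microRNA processing. The genes were chosen by locus identifier from a list of 10: the aminotransferases TAA1 (AT1G70560), TAR1 (AT1G23320) and TAR2 (AT4G24670), and the YUCCA flavin monooxygenases YUC1 (AT4G32540), YUC3 (AT1G04610), YUC4 (AT5G11320), YUC8 (AT4G28720), YUC9 (AT1G04180), YUC10 (AT1G48910) and YUC11 (AT1G21430). Of these, 8 were found among the 20612 loci of the expression table, and YUC9 and YUC10 were not analysed here. The digit after AT in each identifier is the chromosome.

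The samples were 1 library of dcl1-5 embryos and 1 library of wild-type Col-0 embryos, both at the early globular stage, when a few cells form a sphere on a stalk called the suspensor. Each library came from a pool of 30 embryos dissected by hand, and poly(A) RNA was amplified in 2 rounds before strand-specific sequencing. The dcl1-5 line carries a mutant allele of DICER-LIKE1 (DCL1), the enzyme that releases plant microRNAs from their precursors. With 1 library per genotype there is no replicate check, no p-value for the genotypes is given, and intervals in brackets are exact 95% intervals that cover counting error only, because amplified reads are not independent molecules.

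TAA1 and its relatives TAR1 and TAR2 turn tryptophan into indole-3-pyruvate. YUC enzymes then turn indole-3-pyruvate into IAA, and they are usually regarded as the limiting step. In the embryo this pathway supplies the auxin that sets up the root pole and, later, the cotyledons. Plants that lack TAA1 and TAR2, or YUC1, YUC4, YUC10 and YUC11 together, can form seedlings without a root, much like mutants of the auxin response factor MONOPTEROS (MP).

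The dcl1-5 library held 4513588 reads that matched the genome and the wild-type library 5611643, so that 1 read was worth 0.222 and 0.178 RPM (reads scaled to the genome-matching reads of the library). DCL1 (AT1G01040) had 3 reads in dcl1-5 and 26 in wild type, a ratio of 0.143 [0.0278 to 0.468]. All 10 embryo markers examined had reads in both libraries, LEC1 and ATML1 at 287 and 284 RPM in dcl1-5 and at 251 and 196 RPM in wild type. Because the samples are whole embryos, fewer cells that express a gene and less RNA per cell cannot be told apart.

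The 2 enzymatic steps differed in how their transcripts compared between the libraries. The TAA/TAR genes together were higher in dcl1-5, with 182 reads or 40.3 RPM [34.7 to 46.6] in dcl1-5 and 32 reads or 5.70 RPM [3.90 to 8.05] in wild type, a ratio of 7.07 [4.84 to 10.6]. The 5 listed YUC genes together were at the same summed RPM, with 166 reads or 36.8 RPM [31.4 to 42.8] in dcl1-5 and 206 reads or 36.7 RPM [31.9 to 42.1] in wild type, a ratio of 1.002 [0.812 to 1.24], although this sum was lower in dcl1-5 with median-of-ratios (log2 -0.46) and TMM scaling (-0.65). Within that sum YUC4 was 5.07-fold lower in dcl1-5 while YUC3 was 1.79-fold higher. The ratio of TAA/TAR to YUC reads, which does not depend on how the libraries are scaled, was 1.10 within dcl1-5 and 0.155 within wild type, a 7.06-fold difference [4.53 to 11.2].

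**Figure D1:**
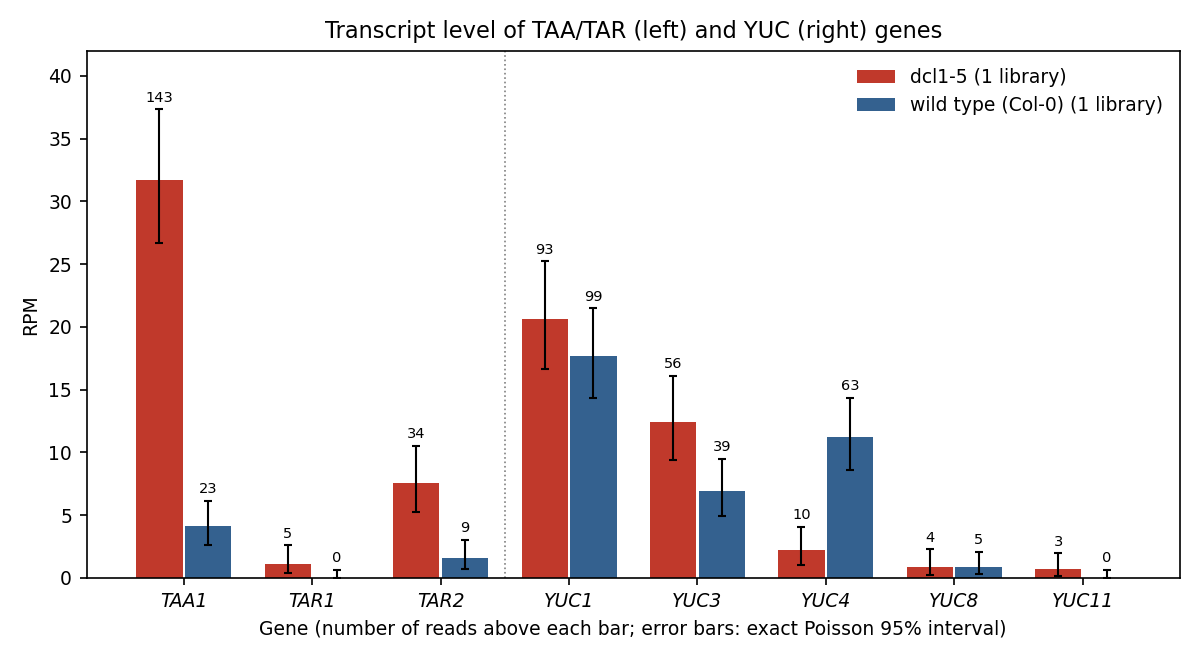
Level in RPM (vertical axis, starting at 0) of each of the 8 listed genes in the dcl1-5 library (red, left) and the wild-type library (blue, right), with exact Poisson 95% intervals as error bars and read numbers above them. TAA1 has 143 reads in dcl1-5 and 23 in wild type, while YUC4 has 10 in dcl1-5 and 63 in wild type.

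A yardstick for single genes is needed because most transcripts were higher in dcl1-5 on the RPM scale. Ratios below are on the scale of log2(RPM + 1), as dcl1-5 over wild type, on which differences of low genes come out too small, and folds are plain RPM ratios. Over the 10240 genes whose mean in the 2 libraries reached 5 RPM, the median log2 ratio was 0.63. Their lower quartile was 0.0015, so most of them had more RPM in dcl1-5. In dcl1-5, 33.8% of these genes passed 2-fold upward and 4.58% passed 2-fold downward, and at 5 to under 20 RPM, where all tested members lie, 40.9% and 4.59% did. That split depended on scaling, with 3464 higher and 469 lower by the authors' scaling (88.1% of them higher), 1984 and 1091 by median-of-ratios scaling (64.5% higher) and 1535 and 1487 by TMM scaling (50.8% higher). Those scalings moved the median of all genes to 0.18 and 0.00 in log2.

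Of the 8 listed auxin synthesis genes, 4 reached a mean of 5 RPM, and of these TAA1 was at least 2-fold higher, YUC4 at least 2-fold lower, and YUC1 and YUC3 neither. TAA1 passed the filter only through its dcl1-5 level and YUC4 only through its wild-type level, so a difference was built into both. The median log2 ratio of the 4 was 0.48. A count of 1 higher and 1 lower in 4 is too small to set against the shares of 33.8% and 4.58%, and nothing is read from it. An exact binomial test on the reads, a comparison of the libraries with no bearing on the genotypes, called TAA1 and YUC3 higher and YUC4 lower, as it did 59.6% and 14.3% of all genes tested.

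TAA1, the main aminotransferase of the pathway and known to be active in the upper part of the young embryo, was higher in dcl1-5. It had 31.7 RPM [26.7 to 37.3] in dcl1-5 and 4.10 RPM [2.60 to 6.15] in wild type. The intervals do not overlap, and the fold was 7.73 [4.95 to 12.6]. Its log2 ratio of 2.68 was 2.05 above the median of all genes, and 221 of the 10240 genes (2.16%) were as high or higher. TAA1 entered those genes only through its dcl1-5 level, so nothing is read from that rank. The log2 ratio stayed positive under every alternative tried, between 2.01 with a pseudocount of 5 RPM and 2.92 with 0.1 RPM.

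TAR2, the relative whose loss worsens that of TAA1, was also higher but at lower depth. It had 34 reads or 7.53 RPM [5.22 to 10.5] in dcl1-5 and 9 reads or 1.60 RPM [0.733 to 3.04] in wild type, a fold of 4.70 [2.21 to 11.1]. Its mean of 4.57 RPM lay just under the filter, so it was not counted above. Its log2 ratio of 1.71 [0.91 to 2.44] was 1.08 above the median of all genes, and 12.8% of the genes tested were as high or higher. TAR1 had 5 reads or 1.11 RPM [0.360 to 2.59] in dcl1-5 and 0 reads in wild type, where the limit that a count of 0 allows (3 reads) is 0.535 RPM. The exact interval of its fold starts at 1.14. TAA1 took 78.6% [71.9 to 84.3] of the reads of the 3 aminotransferase genes in dcl1-5 and 71.9% [53.3 to 86.3] in wild type, so no change in its share was detectable at this depth. The ratio of TAA1 to TAR2 reads was 4.21 in dcl1-5 and 2.56 in wild type, a 1.65-fold difference whose interval of 0.612 to 4.10 includes equality.

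YUC1, the first gene of its family to be described through a dominant mutant with excess auxin, was the most abundant YUC gene in both libraries. Its 93 reads in dcl1-5 gave 20.6 RPM [16.6 to 25.2] and its 99 reads in wild type 17.6 RPM [14.3 to 21.5]. The intervals overlap widely, and the fold of 1.17 [0.870 to 1.57] includes equality. The direction depends on scaling, since the log2 ratio of 0.21 became -0.24 with median-of-ratios and -0.43 with TMM scaling.

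YUC4, which works with YUC1 in the embryo and at organ tips, ran the other way from TAA1. It had 10 reads or 2.22 RPM [1.06 to 4.07] in dcl1-5 and 63 reads or 11.2 RPM [8.63 to 14.4] in wild type, 5.07-fold lower [2.58 to 11.1] in dcl1-5. The 2 intervals are apart. On the log2(RPM + 1) scale the ratio was -1.93, short of 4-fold, and 92 of the 10240 genes (0.898%) were as low or lower. YUC4 entered those genes only through its wild-type level, so nothing is read from that rank. The log2 ratio stayed negative under every alternative, between -2.46 with TMM scaling and -1.17 with a pseudocount of 5 RPM.

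YUC3 had 56 reads or 12.4 RPM [9.37 to 16.1] in dcl1-5 and 39 reads or 6.95 RPM [4.94 to 9.50] in wild type. Its fold of 1.79 [1.17 to 2.76] excludes equality by counting error, but its log2 ratio of 0.75 lay only 0.13 above the median of all genes and was 0.15 with TMM scaling. YUC8, best known for its part in growth responses to warmth and shade, was near the limit of detection, with 4 reads in dcl1-5 and 5 in wild type, a ratio of 0.995 [0.197 to 4.62]. YUC11 had 3 reads in dcl1-5 and 0 in wild type, both within the limit of 3 reads, so no fold is given. For these last genes a difference was not detectable at this depth.

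**Figure D2:**
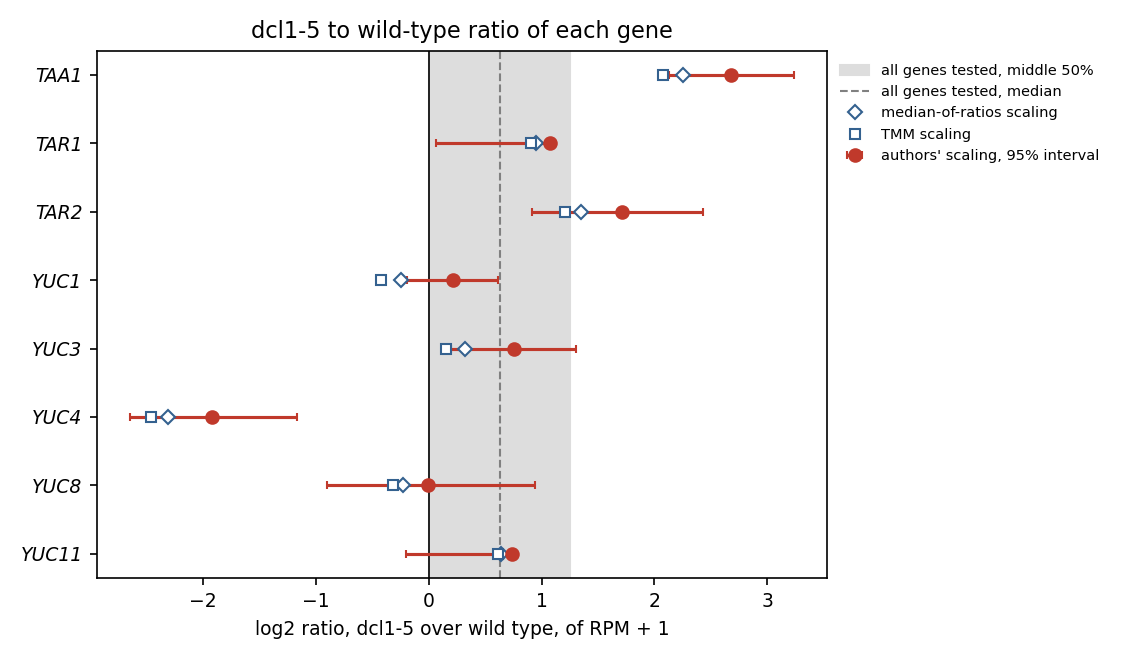
Log2 ratio of RPM + 1, dcl1-5 over wild type (horizontal axis), of each listed gene by the authors' scaling with its exact 95% interval (red) and by median-of-ratios and TMM scaling (open symbols), with the median (dashed) and the middle 50% (grey) of all 10240 genes tested. TAA1 lies right of the grey band at 2.68 and YUC4 left of it at -1.93 by the authors' scaling, while YUC1 changes side with scaling.

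Among the 5 listed YUC members the composition of the reads differed. YUC2, YUC6 and YUC7, which are not members, were left out of these totals. YUC4 gave 6.02% [2.93 to 10.8] of the YUC reads in dcl1-5 and 30.6% [24.4 to 37.4] in wild type. YUC3 gave 33.7% [26.6 to 41.5] in dcl1-5 and 18.9% [13.8 to 25.0] in wild type. The intervals of both genes are apart between the libraries, those of YUC3 by little. Shares of the same total are tied, so a lower YUC4 share alone makes the other shares higher. The YUC3 share is thus not a separate difference, and the ratio of YUC1 to YUC3 reads included equality (0.654 [0.385 to 1.11], dcl1-5 over wild type). YUC1 gave 56.0% [48.1 to 63.7] in dcl1-5 and 48.1% [41.1 to 55.1] in wild type, which overlap. Relative to the sum of the other listed YUC members, YUC4 was 6.87-fold lower [3.32 to 15.5] in dcl1-5.

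Such ratios within a library are free of scaling, and 10 pairs were compared among the 5 members with at least 20 reads in total. The interval excluded equality for 8 of them, and the exceptions were TAA1 with TAR2 and YUC1 with YUC3. The share for pairs of other genes was not calculated, so nothing is read from the count of 8. For single genes the exact binomial test called 59.6% higher and 14.3% lower. The widest gap was between TAA1 and YUC4, with 14.3 TAA1 reads per YUC4 read in dcl1-5 and 0.365 in wild type, a 39.2-fold difference [16.7 to 96.1]. YUC1 and YUC4, which act together in the embryo, stood at 9.30 YUC1 reads per YUC4 read in dcl1-5 and 1.57 in wild type, a 5.92-fold difference [2.79 to 13.6]. A ratio of this kind shows that the pair differed unequally between these 2 libraries, and not which of them differed. The intervals are not adjusted for the 10 pairs.

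**Figure D3:**
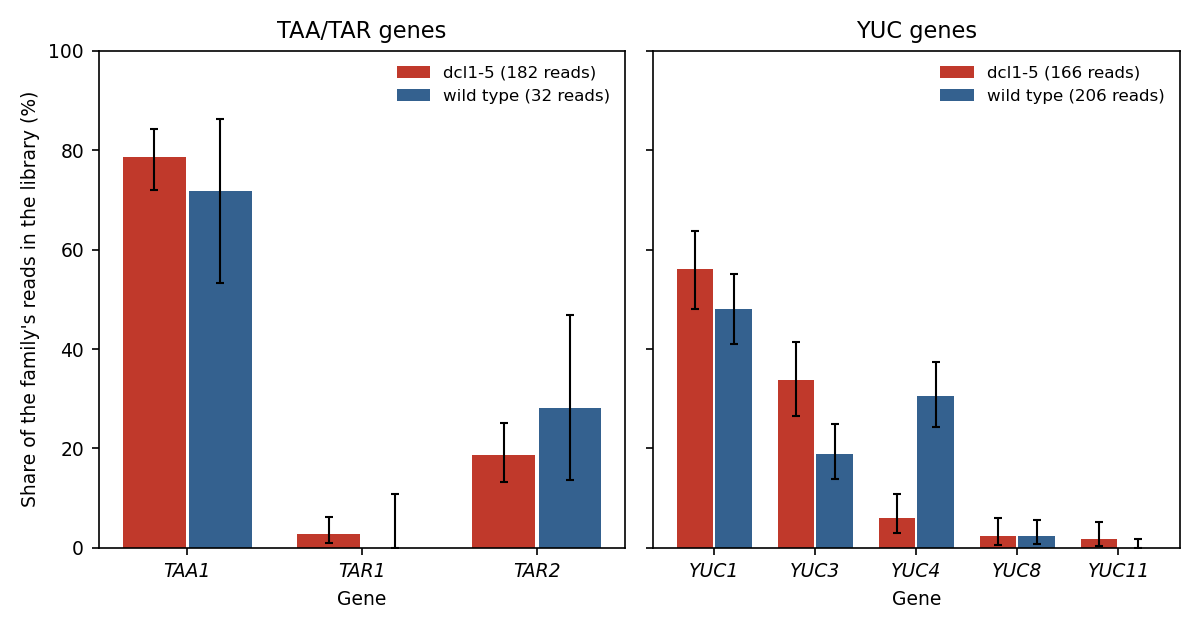
Share of the reads of the listed members of each family (vertical axis, %) that fell on each gene in dcl1-5 (red, left) and wild type (blue, right). Error bars are exact Clopper-Pearson 95% intervals, and the members' totals are in the legends. YUC4 falls to 6.02% of the YUC members' reads in dcl1-5, against 30.6% in wild type, while the TAA/TAR shares overlap.

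The order of the genes by level, taken as RPM per kb of coding sequence, also differed. In dcl1-5 TAA1 came first at 26.9 [22.7 to 31.7], before YUC1 at 16.5 [13.3 to 20.2], YUC3 at 9.44 [7.13 to 12.3], TAR2 at 5.69 [3.94 to 7.96] and YUC4 at 1.79 [0.860 to 3.30]. In wild type YUC1 came first at 14.1 [11.5 to 17.2], before YUC4 at 9.08 [6.98 to 11.6], YUC3 at 5.29 [3.76 to 7.23], TAA1 at 3.49 [2.21 to 5.23] and TAR2 at 1.21 [0.554 to 2.30]. Neighbours in the dcl1-5 order had intervals apart, with the exception of YUC3 and TAR2. All neighbours in the wild-type order overlapped. TAR1, YUC8 and YUC11 were below 1 RPM per kb in both libraries. The coding lengths differ little, from 1167 to 1323 bases, so RPM gives the same order of these 5 genes in both libraries. Coding lengths come from RefSeq TAIR10.1, and scaling to length assumes that reads spread along the transcript, which amplification from the poly(A) tail may not give.

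Of the remaining family members, YUC6 (AT5G25620) had 10 reads or 2.22 RPM in dcl1-5 and 28 reads or 4.99 RPM in wild type, 2.25-fold lower [1.06 to 5.20] in dcl1-5. YUC7 (AT2G33230) had 6 reads in dcl1-5 and 7 in wild type, and YUC2 (AT4G13260) had 0 and 2. AT1G34040, annotated as a pyridoxal phosphate-dependent transferase of the wider aminotransferase superfamily, had 4 reads in dcl1-5 and 0 in wild type. None of these 4 reached a mean of 5 RPM, and YUC5 and AT1G34060 were not analysed here.

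Upstream of the pathway lies tryptophan synthesis, where 1 of 6 genes at 5 RPM was at least 2-fold higher and none lower. Over all genes tested 33.8% and 4.58% were, and nothing is read from so small a count. The median log2 ratio of the 6 was 0.66, near the 0.63 of all genes. The gene past 2-fold was ASA2 (AT2G29690), a subunit gene of anthranilate synthase, with 40.5 RPM in dcl1-5 and 16.6 RPM in wild type, and it fell short of 2-fold with median-of-ratios (log2 0.78) and TMM scaling (0.60). TSA1 (AT3G54640), the alpha subunit of tryptophan synthase, had 74.7 RPM in dcl1-5 and 37.6 RPM in wild type. TSB1 (AT5G54810), a beta subunit, had 31.5 RPM in dcl1-5 and 19.8 RPM in wild type, with a log2 ratio of 0.64 that was 0.00 with TMM scaling. AT2G04400, annotated with indole-3-glycerol-phosphate synthase activity, had 11.7 RPM in dcl1-5 and 6.95 RPM in wild type. Its levels and those of YUC3 were the closest match found for any member, at a distance of 0.07 in log2(RPM + 1) over the 2 libraries. For TAA1 the closest of the 81 genes searched were the nitrilase NIT3, at 0.58, and the amidohydrolase AMI1, at 0.80.

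Genes of other proposed routes to IAA were listed together with VAS1 and NIT4, which do not make IAA. Of the 10 found, 8 had more RPM in dcl1-5 and 2 had less, NIT4 among the 2. The median log2 ratio of the 10 was 1.39. The lower quartile of all genes tested was 0.0015 in log2, so most had more RPM too. Nothing is read from the 8 of these 10. Of the 6 that reached 5 RPM, 5 were past 2-fold upward and none downward, beside 33.8% of all genes tested, with a median of 2.51. NIT3, at 3.21 RPM in wild type, and AMI1 reached 5 RPM only through dcl1-5, so a difference was built into that count and that median and nothing is read from them. NIT2 (AT3G44300), a nitrilase that can turn indole-3-acetonitrile into IAA, had 87.5 RPM in dcl1-5 and 9.80 RPM in wild type, an 8.93-fold difference [6.72 to 12.1]. NIT1 (AT3G44310) was 6.17-fold higher [5.02 to 7.64] and NIT3 (AT3G44320) 6.84-fold [4.11 to 12.0]. NIT1, NIT2 and NIT3 are close copies, so their uniquely mapped reads are partial counts and their values are not independent. AMI1 (AT1G08980), which can hydrolyse indole-3-acetamide to IAA, had 22.2 RPM in dcl1-5 and 2.32 RPM in wild type, 9.56-fold higher [5.35 to 18.6]. VAS1 (AT1G80360), which works against TAA1 by turning indole-3-pyruvate back into tryptophan, had 104 reads or 23.0 RPM in dcl1-5 and 49 reads or 8.73 RPM in wild type, 2.64-fold higher [1.86 to 3.79]. With median-of-ratios and TMM scaling 4 of the 6 were past 2-fold, without VAS1.

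Of the 12 listed genes that conjugate or remove IAA, 11 had more RPM in dcl1-5 and 1 had less, at a median log2 ratio of 1.05. Most genes tested also had more RPM there, with a lower quartile of 0.0015 in log2. Of 4 at 5 RPM, 2 were at least 2-fold higher and 1 lower, beside 33.8% and 4.58% of all genes tested. The median log2 ratio of the 4 was 0.93. GH3.5 reached 5 RPM only through dcl1-5, so a difference was built into that count and that median, and nothing is read from them. GH3.2 (AT4G37390), an auxin-induced enzyme that joins IAA to amino acids, had 109 reads or 24.1 RPM in dcl1-5 and 317 reads or 56.5 RPM in wild type, 2.34-fold lower [1.88 to 2.93] in dcl1-5. Its relatives GH3.5 (AT4G27260) and GH3.3 (AT2G23170) were higher, GH3.5 at 14.4 RPM in dcl1-5 and 0.356 RPM in wild type on 2 wild-type reads (40.4-fold [10.7 to 341]), and GH3.3 at 16.4 RPM in dcl1-5 and 5.35 RPM in wild type. The 2-fold call of GH3.3 was lost with TMM scaling (log2 0.85). IAMT1 (AT5G55250), which methylates IAA, had 45.0 RPM in dcl1-5 and 33.7 RPM in wild type, a difference that reversed under median-of-ratios (log2 -0.06) and TMM scaling (-0.25).

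Among hydrolases that release IAA from conjugates, 1 of the 4 that reached 5 RPM was past 2-fold upward and none downward. Over all genes tested 33.8% and 4.58% were. The median log2 ratio of the 4 was 0.51, beside 0.63 for all genes tested. With TMM scaling 0 were past 2-fold upward and 1 downward, beside 1535 and 1487 of the 10240 genes tested. The median was then -0.08, beside 0.00 for all genes tested. Nothing is read from counts this small. ILR1 (AT3G02875) had 19.9 RPM in dcl1-5 and 6.24 RPM in wild type, 3.20-fold higher [2.14 to 4.87], and was short of 2-fold with TMM scaling (log2 0.92). ILL2 (AT5G56660), the 1 downward with TMM scaling (log2 -1.09), had 11.3 RPM in dcl1-5 and 16.0 RPM in wild type. ILL1 (AT5G56650) had 9.53 RPM in dcl1-5 and 4.81 RPM in wild type. It reached 5 RPM only through dcl1-5, so a difference was built into its place among the 4. IAR3 (AT1G51760) had 8.86 RPM in dcl1-5 and 7.84 RPM in wild type, a difference whose sign changed with scaling.

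**Figure D4:**
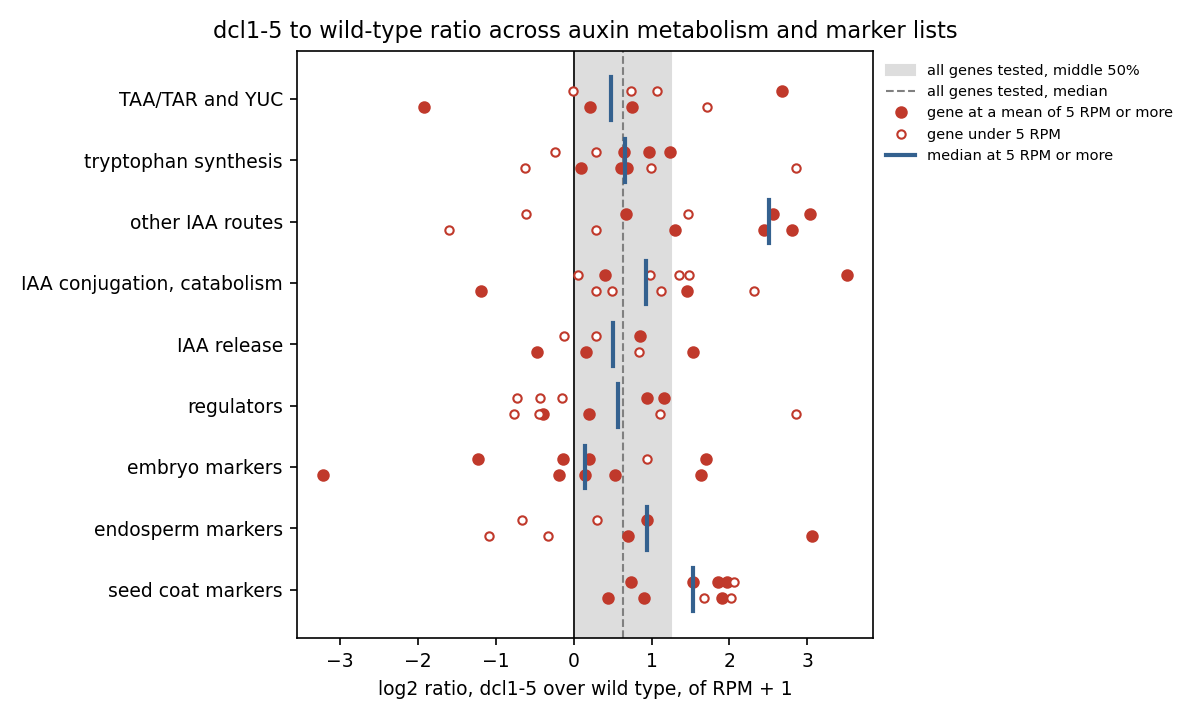
Log2 ratio of RPM + 1, dcl1-5 over wild type (horizontal axis), of every listed gene of each list, filled where the mean was at least 5 RPM, with the list's median over filled genes (blue bar) and the median (dashed) and middle 50% (grey) of all genes tested. TAA1 and YUC4 lie at opposite ends of the auxin synthesis genes. The median of the other IAA routes, a list that also holds VAS1 and NIT4, is 2.51 over the filled genes and 1.39 over all 10 listed.

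Transcription factors known to act on these genes gave 1 of 4 at 5 RPM at least 2-fold higher and none lower. Over all genes tested 33.8% and 4.58% were, and nothing is read from so small a count. The median log2 ratio of the 4 was 0.57, beside 0.63 for all genes tested. Over all 11 listed the median was -0.15, with 5 higher and 6 lower in RPM. Most genes tested had more RPM in dcl1-5, with a lower quartile of 0.0015 in log2. The 11 include genes under 5 RPM, which that quartile leaves out. STY1 (AT3G51060), an activator of YUC4, had 41 reads or 9.08 RPM in dcl1-5 and 69 reads or 12.3 RPM in wild type, and its fold of 0.739 [0.489 to 1.10] includes equality. It reached 2-fold lower with TMM scaling (log2 -1.01). REV (AT5G60690), a homeodomain factor that activates TAA1 in leaves and is itself a target of miR165 and miR166, had 18.8 RPM in dcl1-5 and 7.84 RPM in wild type, 2.40-fold higher [1.65 to 3.54], and fell short of 2-fold with TMM (log2 0.55) and median-of-ratios scaling (0.72) and with a pseudocount of 5 RPM (0.89). FUS3 (AT3G26790) had 10.9 RPM in dcl1-5 and 5.17 RPM in wild type. LEC1 (AT1G21970), an embryo regulator that can activate YUC10, had a ratio of 1.14 [1.06 to 1.24] that turned negative with both other scalings.

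Markers of other seed tissues were read in the same libraries. All 10 seed coat markers had more RPM in dcl1-5, with a summed level of 261 RPM in dcl1-5 and 82.3 RPM in wild type. Most genes tested also had more RPM in dcl1-5, with a lower quartile of 0.0015 in log2. MUM4 was lower with median-of-ratios (log2 -0.01) and TMM scaling (-0.20). GL2, BAN, TT1 and DFR, 4 of the 7 at 5 RPM, were at least 2-fold higher, beside 33.8% of all genes tested. DFR was short of that with TMM scaling (log2 0.88). GL2, with 3.74 RPM in wild type, and TT1, with 1.60 RPM there, reached 5 RPM only through dcl1-5, so they had to differ. BAN had 125 RPM in dcl1-5 and 32.6 RPM in wild type. Endosperm markers summed to 59.4 RPM in dcl1-5 and 30.1 RPM in wild type. Of the 7 found in the table, 4 were higher and 3 lower in RPM. Most genes tested had more RPM in dcl1-5, so nothing is read from that split. All 3 lower ones were under a mean of 5 RPM. MEA had 6 reads in dcl1-5 and 15 in wild type, AGL62 1 and 9, and ZOU 1 and 3. FIS2 was the 1 of 3 at 5 RPM past 2-fold upward, beside 33.8% of all genes tested. It had 11.7 RPM in dcl1-5 and 0.535 RPM in wild type. FIS2 also reached 5 RPM only through dcl1-5, so it had to differ. FWA had 27.0 RPM in dcl1-5 and 13.5 RPM in wild type, and SUC5 17.9 RPM in dcl1-5 and 10.7 RPM in wild type. No marker of either list found in the table was at 0 in either library. The part of these tissues in the TAA1 and TAR2 values was not tested.

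Embryo markers were mixed. Of 9 at 5 RPM, 2 were at least 2-fold higher and 2 lower, beside 33.8% and 4.58% of all genes tested. The median log2 ratio of the 9 was 0.14, and -0.48 with TMM scaling. WOX8 reached 5 RPM only through dcl1-5 and DRN only through wild type. A difference was thus built into both, and nothing is read from these counts. WOX8 and WOX9, genes of the basal lineage, were higher, with 16.2 and 29.9 RPM in dcl1-5 and 4.28 and 8.91 RPM in wild type. DRN, a gene of the apical embryo, was 13.4-fold lower in dcl1-5, at 1.99 RPM in dcl1-5 and 26.7 RPM in wild type. WOX2 (AT5G59340), also of the apical embryo, had 15.1 RPM in dcl1-5 and 13.5 RPM in wild type, a ratio of 1.11 [0.790 to 1.56] whose log2 value of 0.14 was -0.30 with median-of-ratios and -0.48 with TMM scaling. PLT2, a root pole gene, had 12.2 RPM in dcl1-5 and 29.9 RPM in wild type. Whether the cells that express YUC4 were fewer in dcl1-5 was not tested.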

How the data were processed

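Reads from 1 dcl1-5 and 1 wild-type library were aligned by the authors to TAIR9 with Bowtie (version not given in the sources used here), with at most 2 mismatches in a 25 nt seed, per the series' design text. Uniquely mapped reads on the strand opposite to a gene were counted there, since amplification inverts the strand. The deposited values are RPM over genome-matching reads, per the file headers. Dividing by the smallest value gave integers for 100% of entries (tolerance 0.01), so reads were recovered, and the exact binomial test run on them called 6101 genes higher and 1466 lower between these 2 libraries. A column of the authors' own quotients was not used.

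Names, coding lengths and overlaps came from RefSeq TAIR10.1. Because that build is not the authors' build, no coordinates or sequences are given. YUC11 was the listed member that overlapped another locus there, on the opposite strand.

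Log2 ratios used a pseudocount of 1 RPM, only genes that averaged 5 RPM or more were counted, and 2-fold was the threshold. RPM values have exact Poisson intervals, folds exact conditional (Clopper-Pearson) intervals, and ratios of ratios exact conditional odds ratio intervals. All members were named, with up to 4 genes per other list by largest absolute log2 ratio at 5 RPM, the other YUC and TAR genes, and for members at 5 RPM the genes nearest in level. Members and lists were chosen with earlier results of these data known. Alternatives were pseudocounts of 0.1 and 5 RPM, other filters, scalings and thresholds, and TMM from edgeR 4.0.16 in R 4.3.3. Python 3.11.15 and scipy 1.17.1 were used, and the calculations were tested on simulated data.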

Additional observations from a re-analysis of the deposited data

How the results depend on the processing

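TAA1 stayed at least 2-fold higher and YUC4 at least 2-fold lower under all scalings and pseudocounts tried. In log2, TAA1 was 2.01 and YUC4 -1.17 with a pseudocount of 5 RPM, and TAA1 was 2.08 with TMM scaling. The summed TAA/TAR genes were 2.08 with that pseudocount and 2.01 with TMM scaling. With a pseudocount of 0.1 RPM, TAR1 and YUC11, which had 0 wild-type reads, were 3.59 and 2.93. YUC1 was -0.24 with median-of-ratios and -0.43 with TMM scaling, the summed YUC genes were -0.46 and -0.65, and YUC3 was 0.15 with TMM scaling. YUC8, at 0.00, took either sign.

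Members counted as at least 2-fold higher numbered 3 with no filter (with TAR1 and TAR2) and 2 at a mean of at least 1 RPM (with TAR2), and 1 member was lower in both. At a mean of at least 20 RPM no member was left, so 0 were higher and 0 lower. At 4-fold YUC4 was lost, leaving 0 lower, and the exact binomial test called 2 higher (with YUC3). Over all genes, higher and lower counts were 1984 and 1091 with median-of-ratios scaling, 1535 and 1487 with TMM scaling, 5706 and 1154 with no filter, 5386 and 949 at 1 RPM, 1243 and 220 at 20 RPM, 801 and 83 at 4-fold, 6101 and 1466 by the binomial test, and 2221 and 249 at 5 to under 20 RPM, a range added after seeing the data. Fewer or more genes enter by the construction of each filter.

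No paired analysis was possible because there is 1 library per genotype, and for the same reason no library was left out in turn. Depth limits YUC8, YUC11, TAR1 and YUC2, which had 5 or fewer reads in each library.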

Other observations

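Some low genes of the lists differed by more than their counting error although they stayed under a mean of 5 RPM. Those described here were picked after their values were seen. Others did so too, among them SUR1, DAO1, TT8 and TT16 (higher) and YUC6 and AGL62 (lower). At 5 RPM or more the exact binomial test called 59.6% of genes higher and 14.3% lower. The share under 5 RPM was not calculated. PAI3 (AT1G29410), a phosphoribosylanthranilate isomerase of tryptophan synthesis, had 28 reads in dcl1-5 and 0 in wild type, and the exact interval of its fold starts at 8.83, while its close copy PAI1 had 1 read in dcl1-5 and 0 in wild type. PIF5 (AT3G59060), a light-signalling factor, likewise had 28 reads in dcl1-5 and 0 in wild type, whereas its relative PIF4 (AT2G43010), an activator of YUC8, had 9 in dcl1-5 and 17 in wild type. UGT74D1 (AT2G31750), a glucosyltransferase that acts on auxin, had 26 reads in dcl1-5 and 2 in wild type, a 16.2-fold difference [4.05 to 141], and another locus overlaps it on the opposite strand. The nitrilase NIT4 (AT5G22300), which detoxifies cyanide products rather than making IAA, had 2 reads in dcl1-5 and 19 in wild type, 7.64-fold lower [1.84 to 67.7] in dcl1-5, opposite to NIT1, NIT2 and NIT3.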
